A study of Mus musculus with 69 samples.

Results

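Maternal separation was compared with control rearing in wildtype male mice at postnatal day 22 (P22), the day of weaning, in 19 hippocampal libraries of 1 animal each out of 69 in the series. The members were chosen by their labels alone: 11 wildtype P22 animals whose litters had been taken from the dam for 3 h a day between P1 and P14, and 8 wildtype P22 animals from litters that were handled and not separated. Both groups were wildtype for Cdh13, which encodes T-cadherin. They came from 2 breeding rounds, called cohorts, with 4 control and 6 separated animals in cohort 1 and 4 and 5 in cohort 2. Further groups served for the test of differences: Cdh13 knockout animals of the same age, 9 control and 10 separated, and wildtype animals of P66, 7 control and 10 separated. An animal is named below by its cohort and its number, so that C1-32 is number 32 of cohort 1. The labels name no strain and no litters. The table as held covers 9930 protein-coding genes of chromosomes 1 to 8, without Cdh13, and it gave each of the 19 libraries between 11.7 and 15.1 M counts (M, mega).

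Repeated removal of pups from the dam is a standard rodent model of early life stress. In this period the pup's adrenal response to stress is normally damped by maternal care, and the loss of that care can raise corticosterone, which acts through the glucocorticoid receptor. The hippocampus holds many such receptors. At weaning its oligodendrocytes, the cells that wrap axons in myelin, are still maturing, and its synapses and inhibitory networks are still being refined.

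No gene separated the rearing groups beyond the spread between animals. With edgeR's quasi-likelihood test and Benjamini-Hochberg adjustment 0 of 7036 genes tested passed an adjusted p of 0.05 (0%), the smallest adjusted p was 0.713, and DESeq2 and limma-voom also called 0. At an unadjusted p under 0.05 there were 463 genes against 352 expected without any effect, 210 of them higher (2.98% of the genes tested) and 253 lower (3.6%) in separated animals. The values of the 11 separated and the 8 control animals overlapped in every gene tested (0% not overlapping). The median standard error (SE) of a log2 change was 0.0688, and the median log2 change over all genes was 0.01. Of the 7036 changes 3654 were positive and 3382 negative. Counts of list members given below are to be read beside these numbers and the 2 shares above. In the sentences below, "higher" and "lower" describe group values, and none of these differences passed the adjusted threshold.

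Genes that mark the dentate gyrus were detected in both groups, and no other brain region was compared. Dentate gyrus granule cells express Prox1, a transcription factor of their fate, and Calb1, the calcium buffer calbindin. Prox1 stood at 220 to 418 counts per M counts (CPM, median 342) in control and at 216 to 439 CPM (median 314) in separated animals. Calb1 stood at 272 to 377 CPM (median 309) in control and at 210 to 323 CPM (median 288) in separated animals. Markers of neighbouring tissue were present as well: genes of the choroid plexus, ependyma and meninges were detected in both groups and varied widely between animals, with values given further on. A list of thalamus, habenula and neighbouring forebrain genes had a mean log2 CPM of 3.06 to 4.15 in control and 3.29 to 4.11 in separated animals.

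Of the single genes with the smallest p, Oip5, a protein that helps load the centromeric histone, came first among those higher after separation. Its level ran from 1.08 to 2.58 CPM (median 1.74) in controls and from 1.80 to 3.50 CPM (median 2.55) in separated animals. Every separated animal lay above the control median, but the ranges overlapped, and the log2 change was 0.59 ± 0.15 (SE; edgeR adjusted p = 0.713). Bdh2, a cytosolic dehydrogenase linked to siderophore and ketone metabolism, ran from 2.36 to 3.68 CPM (median 2.81) in controls and from 3.23 to 6.23 CPM (median 3.94) in separated animals. Its log2 change was 0.55 ± 0.14 (SE), with 0.76 in cohort 1 and 0.30 in cohort 2. Syf2, a spliceosome component, was more abundant and less variable, at 65.8 to 74.5 CPM (median 67.3) in controls and 71.6 to 82.8 CPM (median 75.7) in separated animals. All 11 separated animals exceeded the control median of Syf2, for a log2 change of 0.14 ± 0.04 (SE).

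The other 9 of the 12 higher genes by p had changes between 0.14 and 0.75. Naaa, an acid amidase of lipid mediators, had 0.14 ± 0.04 (SE), and Hmgn2, a nucleosome-binding protein, also had 0.14 ± 0.04 (SE). Cd52, a surface glycoprotein of leukocytes, had 0.61 ± 0.19 (SE) at levels of 0.84 to 2.45 CPM over both groups. Others were G6pd2 (0.65), En2 (0.75), Tnfrsf9 (0.56), Nat8f4 (0.20) and B230118H07Rik (0.18), of which the first 3 rest on low levels, 0.23 to 2.80 CPM over both groups of En2, for example.

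Lower in separated animals, with the smallest p in that direction, was Ptprt, a receptor tyrosine phosphatase of synaptic adhesion. Its level ran from 273 to 320 CPM (median 312) in controls and from 213 to 299 CPM (median 249) in separated animals. All 11 separated animals lay below the control median, and the log2 change was −0.27 ± 0.07 (SE; edgeR adjusted p = 0.713). Reln encodes reelin, a secreted glycoprotein made by Cajal-Retzius cells and interneurons. It stood at 200.1 to 257 CPM (median 224) in controls and at 165 to 222 CPM (median 180.3) in separated animals, again with 11 of 11 below the control median and a change of −0.27 ± 0.07 (SE). Trpc4, a cation channel, had 151 to 222 CPM (median 173) in controls and 132 to 166 CPM (median 148) in separated animals, a change of −0.26 ± 0.07 (SE). Both changes kept their sign in the cohorts: Reln had −0.30 and −0.22, Trpc4 −0.32 and −0.19, in cohorts 1 and 2.

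**Figure D1:**
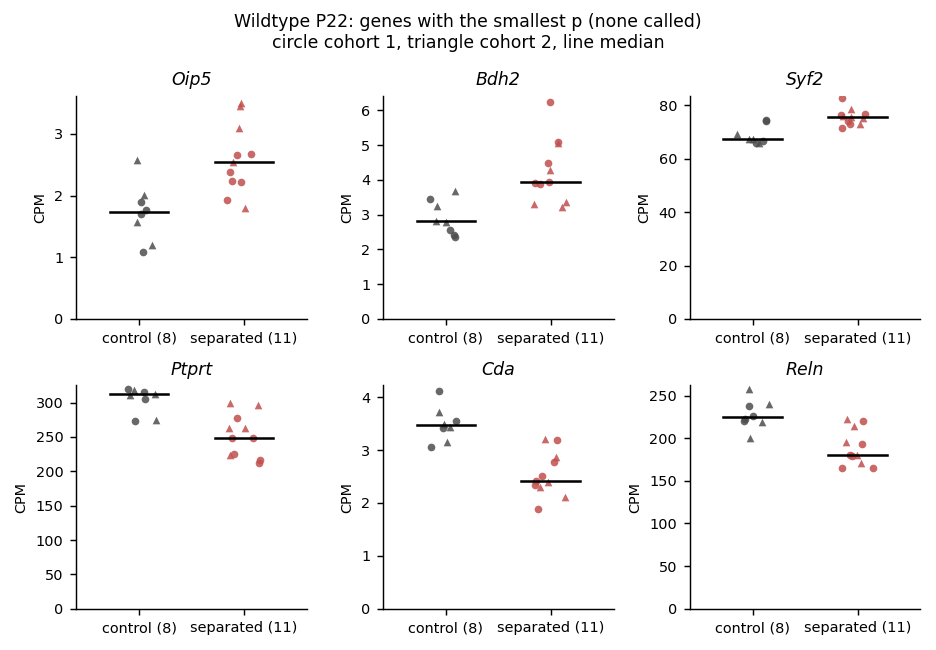
Level (CPM, linear axis from 0) of 3 higher and 3 lower genes in each wildtype P22 animal; circles are cohort 1, triangles cohort 2, and the line is the group median. For Oip5 the separated median of 2.55 CPM stands above the control median of 1.74 CPM, for Ptprt it stands below (249 against 312 CPM), and in all 6 panels the groups overlap.

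The remaining genes of the 12 lower ones were of mixed kinds. Cda, a pyrimidine salvage deaminase, ran from 3.06 to 4.11 CPM in controls and from 1.89 to 3.21 CPM in separated animals, with a change of −0.46 ± 0.12 (SE). Lrrc7, the postsynaptic scaffold densin-180, had −0.28 ± 0.08 (SE), and Usp13, a deubiquitinase, had −0.18 ± 0.05 (SE), of which cohort 1 gave −0.29 and cohort 2 −0.06. Lao1, an amino acid oxidase, had the largest value of the 12, −1.03 ± 0.28 (SE), at levels of 0.34 to 2.25 CPM over both groups. Ly75 (−0.35), Tcerg1l (−0.29) and Vmn2r31 (−0.66) were the others with counts of their own, and Vmn2r31 belongs to a family of near-identical receptors whose reads may be shared. Rnf148 (−0.43) and Rnf133 (−0.42) are neighbours on chromosome 6 with equal CPM in 17 of the 19 libraries, so they are 1 measurement and their separate levels are uncertain.

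All tested myelin genes lay on 1 side, with the highest median change of the 40 lists. Mature oligodendrocytes make compact myelin from structural proteins such as those of Mal, Mag and Cldn11, and from lipids. All 17 tested genes of the mature oligodendrocyte list had a positive change in separated wildtype animals, from 0.07 to 0.42, with a median of 0.32 against 0.01 over all genes. Of these members 12 had an unadjusted p under 0.05 (12 of 17, beside 2.98% higher genes of that kind over all genes) and 0 passed the adjusted threshold. The sign was positive in 17 of 17 in each cohort, with medians of 0.38 in cohort 1 and 0.23 in cohort 2. In bulk tissue, more cells of a type and more RNA per cell cannot be told apart. Earlier results of these data were known when the list was written, so its direction is a description.

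The member with the smallest p was Plekhb1, a membrane-associated protein with a pleckstrin homology domain. It stood at 305 to 430 CPM (median 360) in controls and at 374 to 552 CPM (median 439) in separated animals, a log2 change of 0.29 ± 0.09 (SE; edgeR adjusted p = 0.753). Ppp1r14a, an inhibitor of protein phosphatase 1, had the largest change of the list, 0.42 ± 0.15 (SE), from 13.8 to 29.3 CPM in controls to 19.1 to 35.4 CPM in separated animals. Mal, a raft-associated proteolipid of myelin, stood at 676 to 1225 CPM (median 898) in controls and at 1009 to 1600 CPM (median 1104) in separated animals. Every separated animal exceeded the control median of Mal, Plekhb1, Tmem88b and Cldn11, and 10 of 11 did so for Ppp1r14a. Tmem88b, a transmembrane protein, had 0.36 ± 0.14 (SE), Mal 0.38 ± 0.14 (SE), and Cldn11, the tight junction protein between myelin lamellae, 0.37 ± 0.15 (SE). In each of these genes the highest controls reached into the separated range.

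Promoter windows were searched for the core motif of MYRF, the transcription factor that drives myelin genes, because the members of the list lay on 1 side together. The motif was taken as CTGGCAC or CTGGTAC on either strand, and the window as the 250 bases before and 50 after the start given by RefSeq on GRCm38.p6. Of the 17 genes 15 had a window, and 3 of these 15 held the motif, against 482 of 5604 tested genes with a window (8.60%). These 3 windows, chosen for the match after the values were seen, are printed 5′ to 3′ on the gene's strand with the motif in capitals; Mag has 3 windows in RefSeq, of which 2 overlap and hold the same match, and the first of those is shown.
Mag, chr7:30914814-30915113, minus strand: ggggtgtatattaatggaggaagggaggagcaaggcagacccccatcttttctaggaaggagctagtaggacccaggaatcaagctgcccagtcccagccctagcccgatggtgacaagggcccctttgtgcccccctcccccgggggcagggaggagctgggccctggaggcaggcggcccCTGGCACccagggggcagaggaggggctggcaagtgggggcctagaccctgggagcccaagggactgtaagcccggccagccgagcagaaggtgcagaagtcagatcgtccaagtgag
Tmem125, chr4:118543677-118543976, minus strand: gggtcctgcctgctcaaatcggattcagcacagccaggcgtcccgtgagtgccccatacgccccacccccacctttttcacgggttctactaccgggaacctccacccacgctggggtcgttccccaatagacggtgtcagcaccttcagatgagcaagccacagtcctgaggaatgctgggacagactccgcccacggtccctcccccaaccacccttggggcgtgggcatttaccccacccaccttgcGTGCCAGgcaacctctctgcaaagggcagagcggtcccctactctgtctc
Hapln2, chr3:88027462-88027761, minus strand: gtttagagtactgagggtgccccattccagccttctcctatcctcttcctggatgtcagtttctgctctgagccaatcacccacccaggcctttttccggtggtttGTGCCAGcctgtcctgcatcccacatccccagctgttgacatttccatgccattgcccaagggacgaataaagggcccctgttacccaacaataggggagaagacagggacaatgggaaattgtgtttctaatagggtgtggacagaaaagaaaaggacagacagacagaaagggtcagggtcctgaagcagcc
Mag, a myelin adhesion molecule on the inner membrane facing the axon, had a log2 change of 0.34 ± 0.16 (SE), at 389 to 819 CPM in controls and 465 to 1072 CPM in separated animals. Tmem125 had 0.32 ± 0.16 (SE), and Hapln2, a link protein of the matrix at nodes of Ranvier, had 0.36 ± 0.18 (SE). The windows without the motif include those of Plekhb1, Ppp1r14a, Tmem88b, Mal and Cldn11, so the match did not mark the members with the smallest p. A match is a description of these letters and not a measured binding site.

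Among wildtype P22 animals the low end of the myelin values was held by 4 of the 8 controls. As a score, the mean log2 CPM of the list, control animals ran from 6.96 to 7.63 (median 7.14), and the 4 lowest, C2-51, C1-12, C2-97 and C1-56, lay close together at the low end. Separated animals ran from 7.18 to 7.95 (median 7.46), and 11 of 11 lay above the control median, while the highest control, C1-32, lay above the separated median. Control knockout animals ran up to 7.84 (median 7.33), with 9 of 9 above the wildtype control median, and separated knockout animals from 6.89 to 7.79 (median 7.38). Without control C1-56 the count of members with an unadjusted p under 0.05 was 6, and without C1-12 or C2-51 it was 7. In cohort 2 alone it was 1. With 1 library left out the median change of the list ran from 0.26, without separated C1-39, to 0.42, without control C1-32. The 4 controls with the lowest myelin score were also the 4 with the lowest length index described further on, and the part of that index in the myelin values was tested only by adding it to the fit, where the list median was 0.30 and 8 members had an unadjusted p under 0.05.

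In Cdh13 knockout animals of the same age the myelin list had a median change of −0.01, with 7 of 17 members positive. The 2 cohorts differed there. In cohort 1 the score ran from 7.2 to 7.34 in 4 control and from 7.48 to 7.62 in 2 separated knockout animals. In cohort 2 its median was 7.43 in 5 control and 7.27 in 8 separated knockout animals. The interaction, the change in knockout minus the change in wildtype animals, had a median of −0.29 over the list, but 0 members passed the adjusted threshold and 3 had an unadjusted p under 0.05 on the lower side (3.67% of all genes tested did). For Plekhb1 the interaction was −0.32 ± 0.13 (SE; edgeR adjusted p = 0.584). At P66 the wildtype median was 0.06, with 13 of 17 members positive.

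**Figure D2:**
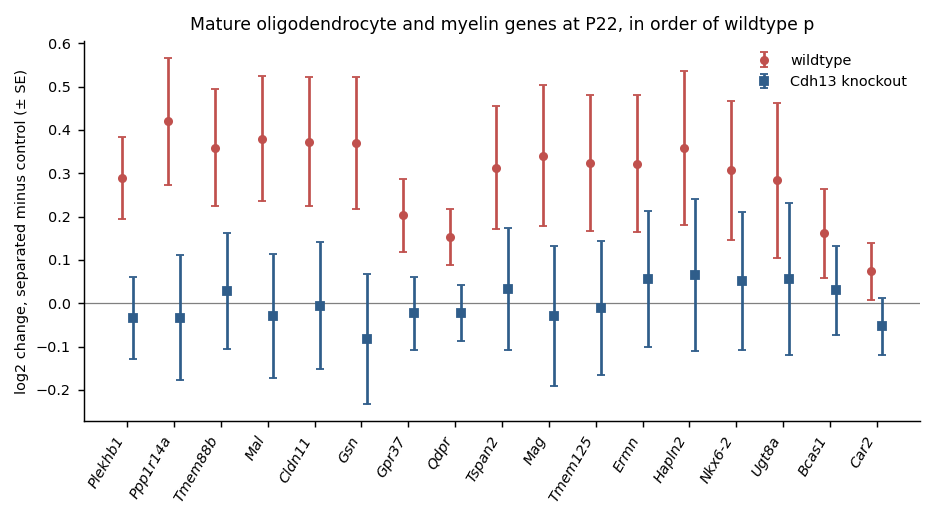
Log2 change (separated minus control, bars ± SE) of the 17 tested mature oligodendrocyte genes in wildtype and in Cdh13 knockout animals at P22, ordered by wildtype p. All 17 wildtype points lie above 0, between 0.07 and 0.42, while 7 of 17 knockout points do.

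Earlier stages of the lineage had smaller values. Of 9 tested genes of oligodendrocyte precursors 3 were higher and 6 lower, with a median of −0.01. Pdgfra, the growth factor receptor that marks precursors, ran from 170.2 to 194 CPM in controls and from 152 to 195 CPM in separated animals, a change of −0.09 ± 0.05 (SE). Tnr, the matrix protein tenascin-R, had −0.15 ± 0.07 (SE), or −0.03 with the length index described further on in the fit. Among enzymes of cholesterol synthesis, which supply the main lipid of myelin, 8 of 10 were higher with a median of 0.08. Fdps, the farnesyl diphosphate synthase, had 0.14 ± 0.06 (SE) and Pmvk, the phosphomevalonate kinase, 0.12 ± 0.05 (SE), and these 2 were the members with an unadjusted p under 0.05. With the oligodendrocyte and choroid plexus scores in the fit the median of the cholesterol list was 0.0014.

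Genes of the tissue that borders the hippocampus varied between animals, more in some groups than in others. The choroid plexus, which secretes cerebrospinal fluid, was represented by 18 tested genes, of which 15 were higher in separated animals, with a median change of 0.23 (0.31 in cohort 1 and 0.13 in cohort 2) and 1 member at an unadjusted p under 0.05. Their score ran from 2.61 to 4.75 in controls and from 2.63 to 4.58 in separated animals. All 16 ependymal genes, of the ciliated lining of the ventricles, had a positive change (median 0.19), with medians of 0.42 in cohort 1 and −0.03 in cohort 2. All 10 genes of meninges and fibroblasts had a negative one (median −0.24), with −0.05 in cohort 1 and −0.44 in cohort 2. Within the plexus list Wfdc2, a protease inhibitor, had 0.58 ± 0.42 (SE) and Steap1, a metalloreductase, 0.54 ± 0.39 (SE), and without control C1-32 these were 1.11 and 0.88. Pon1, the serum paraoxonase, had 1.17 ± 0.49 (SE) with no count in at least 1 control and no level above 1.04 CPM, so its size is uncertain. Cfap126, a protein of motile cilia, had 0.46 ± 0.23 (SE), and Col3a1, a fibrillar collagen, had −0.36 ± 0.19 (SE), or −0.20 without control C2-27.

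Controls C1-32 and C2-27 had the highest meningeal scores of their group, 5.51 and 5.66 in a range from 4.08, while separated animals ran from 4.49 to 5.01. The same 2 controls had the highest choroid plexus scores, 4.75 and 4.42. Without both of them the median change was 0.745 for the choroid plexus, 0.53 for the ependyma and −0.001 for the meninges, and the myelin median was 0.48. With 1 library left out the choroid plexus median ran from 0.10 (without separated C1-1) to 0.53 (without control C1-32), and the ependymal median from 0.08 to 0.41 without the same animals. The meningeal median was −0.12 without control C2-27. In knockout animals the choroid plexus median was −0.84, with 0 of 18 members positive. The interaction of this list had a median of −0.92, and 0 members were called. An unadjusted p under 0.05 was found for 10 of 18 on the lower side, where 3.67% of all genes lay. The part of these tissues in the results for other genes was not tested beyond the fits with their scores.

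**Figure D3:**
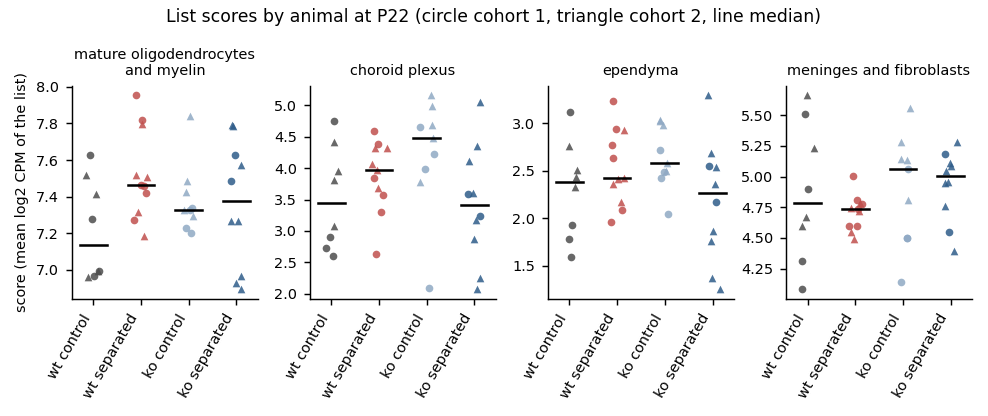
Score (mean log2 CPM of the list's tested genes) of 4 marker lists in each P22 animal of the 4 groups, wt for wildtype and ko for Cdh13 knockout; circles are cohort 1, triangles cohort 2, and the line is the median. In the myelin panel the wildtype control median (7.14) is below those of the other groups (7.33 to 7.46), and in the meninges panel the separated wildtype animals span 4.49 to 5.01 against 4.08 to 5.66 in wildtype controls.

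The change after separation also followed the length of the gene. Across 7026 genes with an exonic length in GENCODE M21, the Spearman correlation of length and wildtype change was −0.364 (−0.354 in cohort 1 and −0.24 in cohort 2), given as a description, since genes are not independent replicates and share their libraries. The shortest quintile of genes, with a median exonic length of 1.73 kb, had a median change of 0.05, and the longest quintile, of 10.17 kb, had −0.05. Genes at an unadjusted p under 0.05 had a median of 2.92 kb on the higher and 8.37 kb on the lower side, against 4.43 kb over all genes. The sign was the opposite in knockout animals (0.205) and at P66 in wildtype animals (0.141). As a length index per animal, the mean centred log2 CPM of the shortest minus that of the longest quintile, controls ran from −0.241 to 0.084 (median −0.085) and separated animals from −0.089 to 0.141 (median 0.025), with 10 of 11 above the control median. Both knockout groups had medians above that of the wildtype controls, 0.026 in control and −0.006 in separated animals. The origin of the index was not tested.

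**Figure D4:**
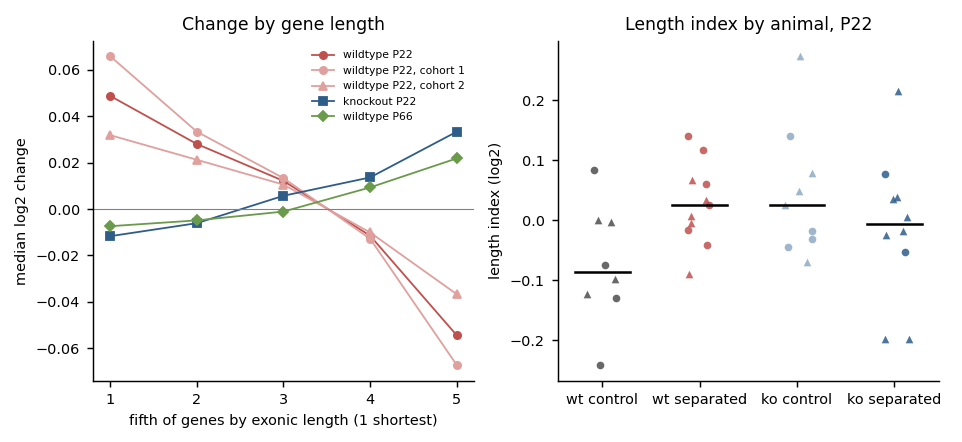
Left, median log2 change of genes in quintiles by exonic length for wildtype P22 (both cohorts and each alone), knockout P22 and wildtype P66. Right, length index of each P22 animal (circles cohort 1, triangles cohort 2, line median). The wildtype P22 line goes from 0.05 to −0.05 while those of knockout P22 and wildtype P66 go upwards, and the wildtype controls hold the lowest index, −0.241.

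Gene groups that differ in length from the rest have to be read beside that gradient. The length index is made from the shortest and longest quintiles of these same genes. For lists of short or long genes, a smaller change with the index in the fit is therefore partly built in. Such values are given as a description. Ribosomal proteins, the small and abundant parts of the translation machinery, had a positive change in 35 of 36 members with a median of 0.10, in 35 in cohort 1 and 36 in cohort 2. Without separated C1-51 the median was 0.06. Their median exonic length was 2.09 kb, 1 member, Rplp2 of the ribosomal stalk (0.13 ± 0.06 SE), had an unadjusted p under 0.05, and with the length index in the fit the list median was −0.02. Subunits of oxidative phosphorylation, the mitochondrial respiratory chain, were positive in 37 of 42 with a median of 0.04, at a median length of 1.54 kb, and 0 had an unadjusted p under 0.05.

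Cadherins, protocadherins and catenins, the adhesion family to which Cdh13 belongs, were negative in 15 of 15 tested members, with a median of −0.09. Their median exonic length was 7.32 kb. Pcdh7, a protocadherin, had −0.22 ± 0.10 (SE) and was the 1 member with an unadjusted p under 0.05 (3.6% of all genes lay lower by that rule), and Cdh4, or R-cadherin, had −0.26 ± 0.13 (SE). With the length index in the fit the median of the list was −0.03, and without control C2-51 it was −0.06. In knockout animals it was 0.08, and 3 of 15 members had an unadjusted p under 0.05 for a higher change in knockout animals, a side on which 4.8% of all genes lay.

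Receptors and channels of neurons, encoded by long genes, were mostly lower. Of 12 glutamate receptor genes 9 were negative, with a median of −0.10 (−0.18 in cohort 1 and −0.05 in cohort 2), at a median exonic length of 9.8 kb. Grin2b, the NMDA receptor subunit that prevails early in life, ran from 890 to 1816 CPM (median 1294) in controls and from 982 to 1383 CPM (median 1093) in separated animals. Its change was −0.28 ± 0.10 (SE), with 10 of 11 animals below the control median. Grin3a, a juvenile NMDA subunit, had −0.21 ± 0.10 (SE). With the length index in the fit the median of this list was −0.03.

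Of 33 voltage-gated channels 27 were negative, with a median of −0.05. Of these channels 4 had an unadjusted p under 0.05 on the lower side, where 3.6% of all genes lay. The list median was −0.01 once the length index was in the fit. Without control C2-85 the median was −0.09, and in cohort 1 alone it was −0.11. The 4 members were Kcnd3, an A-type potassium channel (−0.15 ± 0.05 SE), Cacna1b, the N-type calcium channel of presynaptic terminals (−0.16 ± 0.06 SE), Kcnc4 (−0.15 ± 0.07 SE) and Kcna3. Kcna3, a delayed rectifier also found in immune cells, ran from 5.07 to 13.2 CPM (median 10.3) in controls and from 4.32 to 10.1 CPM (median 6.31) in separated animals, and 11 of 11 lay below the control median. Its change of −0.54 ± 0.19 (SE) was −0.24 with the length index in the fit. GABA receptor subunits, of fast inhibition, were negative in 6 of 9 with 0 at an unadjusted p under 0.05.

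**Figure D5:**
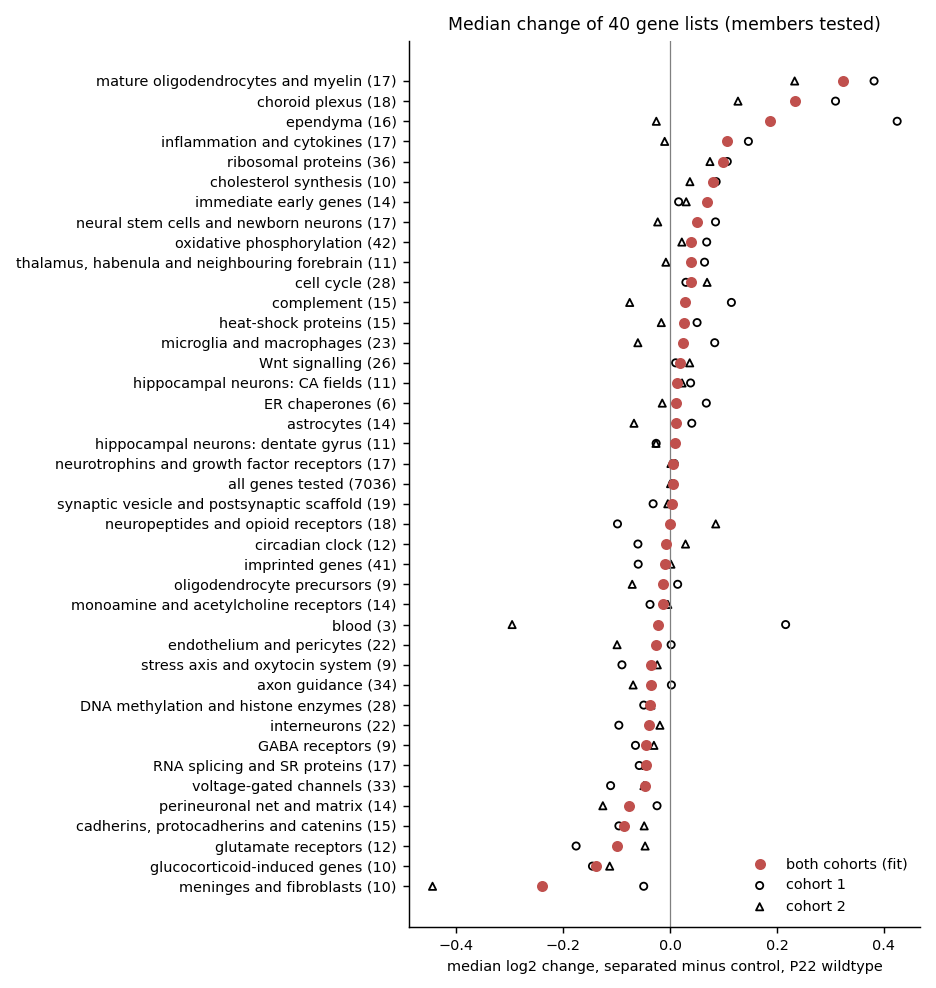
Median log2 change (separated minus control) of the gene lists and of all genes tested in wildtype P22 animals, with the number of tested members in brackets; filled points are from both cohorts, open circles cohort 1 and open triangles cohort 2. Mature oligodendrocytes stand highest at 0.32 and meninges lowest at −0.24, and for ependyma, meninges and blood the cohorts lie far apart.

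Interneuron genes had a median of −0.04, with 15 of 22 negative and 3 lower at an unadjusted p under 0.05 (3.6% of all genes were). Besides Reln these were Ndnf, a secreted factor of neurogliaform cells (−0.19 ± 0.08 SE), and Erbb4, the neuregulin receptor of inhibitory neurons (−0.26 ± 0.12 SE). With the length index in the fit Reln had −0.19, Ndnf −0.07 and Erbb4 −0.07. Genes of axon guidance were negative in 20 of 34, with 4 lower and 1 higher at an unadjusted p under 0.05 (3.6% and 2.98% of all genes). Ntng1, a netrin-G of axons that is strong in thalamus, stood at 72.4 to 95.7 CPM (median 87.0) in controls and 53.7 to 91.9 CPM (median 65.6) in separated animals, a change of −0.32 ± 0.10 (SE). Plxna2, a semaphorin receptor, had −0.13 ± 0.05 (SE) and Efnb2, an ephrin ligand, −0.23 ± 0.09 (SE), whereas Efna1 had 0.23 ± 0.11 (SE), or 0.15 without control C1-50. Of the synaptic scaffolds Shank2 had −0.11 ± 0.04 (SE) and Dlg2, or PSD-93, −0.11 ± 0.05 (SE), both with 11 of 11 animals below the control median, in a list of 19 with a median of 0.00. Once the length index was in the fit, Plxna2 had −0.04 and Dlg2 −0.03.

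Markers of hippocampal subfields had medians close to that of all genes. Dentate gyrus genes had 0.01 over 11 members and genes of the CA fields 0.01 over 11. C1ql3, a synaptic organizer of the C1q family, had −0.22 ± 0.10 (SE). Gpr161, an orphan receptor of cilia, had −0.28 ± 0.11 (SE), and Bok, a member of the BCL2 family, 0.29 ± 0.13 (SE). Of 17 genes of neural stem cells and newborn neurons 12 were positive, with Hopx (0.14 ± 0.06 SE) and Sox2 (0.18 ± 0.08 SE), both of stem cells, at an unadjusted p under 0.05.

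Of 32 listed genes that glucocorticoids induce, only 10 were among the genes covered here, so most of the list was not measured. These were negative in 9 of 10, with a median of −0.14 (−0.15 in cohort 1 and −0.11 in cohort 2). In knockout animals 8 of 10 were negative too (median −0.11). Mertk, a phagocytic receptor, ran from 110 to 193 CPM (median 147) in controls and from 107 to 155 CPM (median 118) in separated animals, with 10 of 11 below the control median and a change of −0.25 ± 0.09 (SE). Hif3a, a hypoxia-inducible factor subunit, ran from 20.5 to 50.3 CPM (median 35.5) in controls and from 10.9 to 40.5 CPM (median 22.96) in separated animals, a change of −0.46 ± 0.23 (SE). These 2 had an unadjusted p under 0.05, and the ranges overlapped in both. The median exonic length of this list was 3.27 kb, and with the length index in the fit its median was −0.21. Without control C1-56 it was −0.08.

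Within the stress axis itself 4 of 9 tested genes were positive. Hsd11b1, the enzyme that regenerates active corticosterone, ran from 53.02 to 77.9 CPM in controls and from 70.6 to 99.2 CPM in separated animals, a change of 0.15 ± 0.08 (SE) that was 0.10 without C1-32. Oxtr, the oxytocin receptor, had −0.21 ± 0.12 (SE), and Ncoa2, a coactivator of steroid receptors, −0.12 ± 0.05 (SE). With the length index in the fit Oxtr had −0.30 and Ncoa2 −0.01. Bdnf, the growth factor most often measured after early stress, ran from 83.7 to 111 CPM (median 98.8) in controls and from 74.2 to 117 CPM (median 108) in separated animals, a change of 0.10 ± 0.09 (SE), about its own error. Ntrk3, the receptor of neurotrophin 3, had −0.19 ± 0.08 (SE). In the fit with the length index Ntrk3 had −0.04 and Bdnf 0.19. Among immediate early genes, which report recent activity, 9 of 14 were positive, but the 2 with an unadjusted p under 0.05 were negative: Fosl2 (−0.25 ± 0.09 SE) and Klf4 (−0.26 ± 0.12 SE).

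Among neuropeptides, single animals weighed on the values. Trh, thyrotropin-releasing hormone, ran from 1.58 to 25.8 CPM (median 3.75) in controls and from 1.14 to 6.90 CPM (median 1.86) in separated animals. Its change of −1.51 ± 0.47 (SE) was −0.56 without control C1-32, which held the 25.8 CPM. Penk, the enkephalin precursor, ran from 37.8 to 148 CPM (median 51.96) in controls and from 38.1 to 236 CPM (median 95.7) in separated animals, a change of 0.73 ± 0.27 (SE) with 10 of 11 above the control median. The highest control of Penk was C1-32 as well, and without it the change was 1.03, while without separated C1-1 it was 0.54. Cohort 1 alone gave 0.44 and cohort 2 alone 1.05 for Penk. With the choroid plexus and oligodendrocyte scores in the fit the change was 0.44 for Penk and −1.39 for Trh. With the choroid plexus score alone it was 0.66 for Penk and −1.52 for Trh, close to the values without it. Animals C1-32 and C1-1 had the highest choroid plexus and ependymal scores of their groups. Trh is also a member of the list of thalamus, habenula and neighbouring forebrain, whose highest control score was that of C1-32 (4.15). That score includes the Trh value of C1-32 itself, so it is no separate measure of neighbouring tissue for Trh. Beyond the fits with the choroid plexus and oligodendrocyte scores, the part of neighbouring tissue in Trh and Penk was not tested. Chgb, a granin of secretory vesicles, had 0.19 ± 0.08 (SE) at 1243 to 1702 CPM in controls and 1385 to 1763 CPM in separated animals. Oprd1, the delta opioid receptor, had −0.16 ± 0.08 (SE).

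Immune genes were divided. Of 17 cytokine and inflammation genes 12 were positive, with a median of 0.11 that was 0.15 in cohort 1 and −0.01 in cohort 2. At an unadjusted p under 0.05 were 4 higher and 1 lower (2.98% and 3.6% of all genes). Csf1, the growth factor of microglia, had 0.19 ± 0.07 (SE), close to the same in both cohorts. B2m, the light chain of class I molecules, had 0.15 ± 0.06 (SE), of which cohort 1 gave 0.28 and cohort 2 0.01, and Irf7, a regulator of type I interferon, had 0.42 ± 0.19 (SE), of which cohort 1 gave 0.77 and cohort 2 0.05. Without separated C1-29 B2m had 0.10 and Irf7 0.26. Il1a had 0.43 ± 0.21 (SE) at levels of 0.42 to 2.26 CPM, and Il6ra, the receptor of interleukin 6, had −0.19 ± 0.07 (SE). Of 23 genes of microglia and macrophages 14 were positive, but the 3 with an unadjusted p under 0.05 were negative. Of these Cd163, a scavenger receptor of perivascular macrophages, had −0.45 ± 0.18 (SE), Mrc1, the mannose receptor of the same cells, −0.32 ± 0.14 (SE), and Inpp5d, a phosphatase of microglial signalling, −0.13 ± 0.06 (SE). The meningeal list lay lower as well, and its part in these 2 macrophage genes was not tested.

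Genes of imprinting and chromatin had medians of −0.01 and −0.04. Zdbf2, an imprinted gene of the paternal allele, ran from 42.7 to 74.04 CPM (median 68.4) in controls and from 39.5 to 65.7 CPM (median 48.5) in separated animals, with 11 of 11 below the control median and a change of −0.36 ± 0.14 (SE). Peg3, a paternally expressed zinc finger protein, had −0.17 ± 0.07 (SE), and Sgce, a sarcoglycan, 0.09 ± 0.04 (SE). Among 28 enzymes of DNA methylation and histones 22 were negative, at a median exonic length of 8.7 kb. Tet2, a dioxygenase that oxidizes methylcytosine, had −0.17 ± 0.07 (SE), and the methyltransferases Kmt2c and Kmt2e had −0.17 ± 0.08 (SE) and −0.12 ± 0.06 (SE). With the length index in the fit Tet2 had −0.06, Kmt2c −0.01 and Kmt2e −0.02. In that fit Peg3 had −0.05 and Zdbf2 −0.19. Sirt2, a deacetylase that is abundant in myelin, had 0.18 ± 0.09 (SE) with 11 of 11 animals above the control median.

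The change in wildtype animals was next compared with that in Cdh13 knockout animals of the same age. With edgeR 0 of 7036 genes passed for the interaction (0%), the smallest adjusted p was 0.295, and DESeq2 and limma-voom called 0 as well. At an unadjusted p under 0.05 there were 596 genes, 258 with a lower change in knockout animals (3.67%) and 338 with a higher one (4.8%). The smallest p belonged to Naaa, with an interaction of −0.25 ± 0.06 (SE; edgeR adjusted p = 0.295). Naaa stood at 66.7 to 79.9 CPM (median 71.8) in control and 73.95 to 86.8 CPM (median 79.8) in separated wildtype animals, and at 73.5 to 86.9 CPM (median 79.1) and 67.4 to 79.8 CPM (median 75.4) in control and separated knockout animals. The wildtype controls thus lay lowest. For Usp13 the interaction was 0.31 ± 0.07 (SE) and for Bdh2 −0.84 ± 0.20 (SE), neither of them past the threshold. For Trh, at 2.57 ± 0.67 (SE), the value again includes control C1-32.

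The same comparison with P66 used all 69 libraries. With edgeR 0 of 7131 genes passed for the interaction of rearing with age (0%), the smallest adjusted p was 0.265, DESeq2 and limma-voom called 0 too, and 606 had an unadjusted p under 0.05. Slc10a4, a vesicular transporter of cholinergic and monoaminergic neurons, had the smallest p, with a change of 0.36 at P22 and −1.12 at P66. Srrm4, the splicing factor of neuronal microexons, had −0.17 at P22 and 0.18 at P66, and Chd2, a chromatin remodeller, had −0.14 and 0.13. G6pd2 had 0.65 and −0.47, and Tas1r3, a taste receptor subunit, 0.35 and −0.87, both at levels near 1 CPM. None of these 5 differences passed the threshold.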

How the data were processed

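Hippocampal RNA of each animal was sequenced from libraries made with Illumina protocols, per the labels' protocols. The authors deposited raw read counts per gene, not normalized, as 1 table with a column for each of 69 animals. The submitters' processing notes name limma 3.34.9, edgeR, cutadapt 1.16 and FastQC 0.11.4. The aligner, counter, strand setting and build were not given in the sources used here. As held, the table stops on chromosome 8, where 1 incomplete record was dropped. Cdh13 was not analysed here, so the genotype labels rest on the sample descriptions. Of the tested genes 99.86% were found in GENCODE M21, 99.0% with the same chromosome, start and end, so lengths and positions are on GRCm38.

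Counts were fitted in R 4.3.3 with edgeR 4.0.16 (quasi-likelihood, TMM, filterByExpr with a minimum count of 10 and total of 15) over all 38 P22 libraries, with the groups and cohort as terms. Log2 CPM for scores used a prior count of 2. Genes were called at a Benjamini-Hochberg adjusted p under 0.05. The age interaction was fitted over all 69 libraries. The procedure was tested on simulated data. Alternatives were DESeq2 1.42.0, limma-voom (limma 3.58.1), RLE normalization, no filter, a stricter filter (1 CPM in 8 libraries), fits of either cohort or without its term, other sets of libraries, tissue scores as covariates, an adjusted p under 0.1 and leaving out each library. Chosen after seeing the data were the choroid plexus score alone, the length index as covariate, leaving out controls C1-32 and C2-27, and the checks of the myelin count and list medians. Of 83 pairs of libraries within the groups used, chi-square per degree of freedom was 6.46 to 35.6 (1 would be counting error alone), and no library was a copy of another.

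The members and gene lists were chosen with earlier results of these data known. The genes named are the 12 higher and 12 lower with the smallest p at a mean log2 CPM of at least 0, up to 5 members by p of each list described with members that define it, and the 5 with the smallest p of each interaction. Tmem125, Hapln2, Mag, Tbc1d10b, Arpc1a and Slit2 were chosen after their values were seen. The labels name no litters: animals were treated as independent, so any likeness of littermates makes the p-values too small. Some genes that the rule names are not reported here.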

Additional observations from a re-analysis of the deposited data

Results flagged for a closer look

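Each named gene and each list score was checked in the 8 control wildtype P22 animals for 1 animal far from the others, taken as a gap to the nearest animal above 0.526 of the group's range. Of 149 groups of values checked 10 had such an animal, and chance alone gives about 1 in 20. Of the 10, 6 were the same animal, control C1-32. There Trh stood at 25.8 CPM with the next control at 6.40 CPM, Penk at 148 CPM with the next at 62.9 CPM, and Cd52 at 1.92 CPM with the next at 1.12 CPM, all at the high end. Hsd11b1 stood at the low end, at 53.02 CPM with the next at 70.5 CPM. The score of neuropeptides and opioid receptors was 5.64 there with the next at 5.26, and the score of imprinted genes 6.42 with the next at 6.27. Trh and Penk are members of the neuropeptide list, so that score is not a separate flag from theirs. Control C1-12 had the lowest Cd163, 1.98 CPM against 4.002 CPM in the next animal. Control C2-27 had the highest Irf7, 6.99 CPM with the next at 4.40 CPM. Control C2-85 had the highest Pdgfra, 194 CPM with the next at 179 CPM. Control C1-50 had the lowest circadian clock score, 6.13 with the next at 6.23.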

How the results depend on the processing

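The count of genes called for separation stayed at 0 under all 16 other settings and with each of the 19 libraries left out, with a smallest adjusted p of 0.178 to 0.999, and that for the interaction with genotype stayed at 0 as well. The interaction with age gave 0 to 1 genes with 1 library left out, the 1 without control wildtype P66 C2-58. Genes whose groups do not overlap numbered 1 with no count filter (Arpc1a), 1 by the rule within each cohort (Tbc1d10b, higher in separated animals), and 0 to 2 with 1 library left out, the 2 (Slit2 and Arpc1a) without control C2-85. The count of 12 myelin genes at an unadjusted p under 0.05 was 1 in cohort 2 alone and 1 with the choroid plexus and oligodendrocyte scores as covariates, the second of which holds the same genes, and 6 to 15 with 1 library left out. Among 109 genes followed under every alternative the sign differed from the reported one in 3 values: −0.0149 for Mag and −0.021 for Hapln2 with both scores as covariates, and 0.0593 for Prox1 with the length index. None of them was called under any alternative. No paired analysis was possible because the numbers in the labels restart in each cohort and rearing group and pair no animals across groups. Levels near 1 CPM rest on about 13 counts a library, which limits the genes of low level named above.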

Other observations

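The serotonin receptor gene Htr1d had a log2 change of 0.83 ± 0.33 (SE), with 0.84 in cohort 1 and 0.83 in cohort 2, at levels of 0.17 to 3.71 CPM; it did not pass the threshold (edgeR adjusted p = 0.753). Mcm2, a replication licensing factor, had 0.22 ± 0.08 (SE), and 21 of 28 cell cycle genes were positive with a median of 0.04. Irs2, an adaptor of the insulin receptor, had −0.11 ± 0.05 (SE), with 10 of 11 separated animals below the control median. Tbc1d10b, a Rab GTPase activator, was the 1 gene whose groups did not overlap within either cohort in the same direction. It stood at 175 to 192 CPM in controls and 192 to 213 CPM in separated animals, a change of 0.12 ± 0.04 (SE). Of the 7036 genes tested, 66 did not overlap in cohort 1 and 68 in cohort 2, with 4 to 6 animals a group. Whether 1 gene in both cohorts exceeds chance was not tested.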
